A study of Mus musculus with 7 samples.

Results

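The very long genes of mouse liver were compared between Sprtn knock-in and wild-type animals. They were taken as the genes of the deposited count table whose genomic region spans at least 400 kb and whose count averages at least 10 over the 7 libraries, with Exoc4 left out. This gave 173 genes of the 51826 in the table. Of the 372 table rows of at least 400 kb, 198 fell under the count minimum, 67 of them with no count at all. The knock-in group (KI) held 4 male C57BL/6J mice homozygous for Sprtn Y118C, and the wild-type group (WT) 3 male C57BL/6J mice, all 6 months old and untreated. The allele is carried by every cell of the animal, and the labels do not say whether the animals were littermates. Polyadenylated liver RNA was sequenced, so the counts report steady-state transcript levels and not the act of transcription.

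Sprtn encodes a protease that travels with the replication fork and degrades proteins covalently trapped on DNA. Such crosslinks, like other bulky lesions and stalled topoisomerase complexes, can also halt RNA polymerase II, and a gene offers a larger target the longer it is. Inhibition of topoisomerase I is known to lower the transcripts of very long genes in neurons. Several very long genes, among them Fhit and Wwox, lie at common fragile sites, where replication and transcription of long units are known to meet. The comparison asks whether the transcripts of very long genes differ between KI and WT livers in another way than those of shorter genes.

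Total counts ranged from 36928472 to 46736592 in KI libraries and from 40297676 to 46755357 in WT libraries. Sprtn itself had 10.3, 11.9, 12.2 and 10.7 CPM (counts scaled to the total of the library) in KI libraries, against 9.60, 11.3 and 9.15 CPM in WT libraries, and a point mutation need not change this level. On the main axis of variation among libraries WT replicate 1 lay at -9.56, among the KI libraries at -26.4 to -7.95, while the other WT libraries lay at 32.5 and 36.0. Defining hepatocyte genes summed to between 76369 and 97598 CPM in KI libraries and between 89804 and 101910 CPM in WT libraries. Kupffer cell and macrophage markers, 10 of 10 detected, summed to 272 to 367 CPM in KI libraries, against 374 to 465 CPM in WT libraries, so the groups did not overlap. In bulk liver, fewer cells of a type and less RNA per cell cannot be told apart. Skeletal muscle markers summed to 68.9 CPM in KI replicate 1 and to 0.487 to 0.842 CPM in the other KI libraries, against 0.560 to 1.19 CPM in WT libraries.

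The 173 genes spanned 400 kb to 4435 kb, with a median of 538 kb, against a median of 22.1 kb among the 13653 shorter genes that met the same count minimum. Most of this length is intron. The exons of a very long gene covered a median of 1.78% of its span, against 19.5% for a shorter gene, and their summed length had a median of 10903 bases, against 4223 bases. Of the 173 genes, 171 encode proteins and 2 are noncoding transcripts in GENCODE release M21. They were expressed at low levels per transcript length, with a median of 0.898 TPM (the deposited transcript share, which allows for transcript length), against 5.37 TPM for the shorter genes. The span of some genes depends on the annotation. In RefSeq 164 of the genes also reached 400 kb, while Fgfr2 spanned 104 kb and Chd1 67.6 kb, against 2961 kb and 1690 kb in the table.

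As a set, the very long genes were not lower in KI livers. Of the 173 genes, 101 had positive and 72 negative log2 differences (KI over WT), that is 41.6% negative, against 49.9% of all 13989 genes tested. Their median log2 difference was 0.05, against 0.001 for all genes tested, and 98 of them, or 56.6%, differed by less than 0.25 in either direction, against 72.0% of all genes tested. All 173 passed the expression filter of the test, and 172 of them averaged at least 10 counts in each group, the exception being Slc35f1. In log2 CPM, single KI libraries gave medians of 0.0171, 0.0944, 0.0327 and -0.0170 relative to the mean of WT (SD of 0.0466). The edgeR median of 0.05 was close to this SD, which leaves out the spread among WT libraries. Of the 4 KI libraries, 1 lay below WT. Without WT replicate 3 the median was 0.0239, and without KI replicate 2 it was 0.0254. No test of the set as a whole was made, since its genes are not independent replicates of the genotype.

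**Figure D1:**
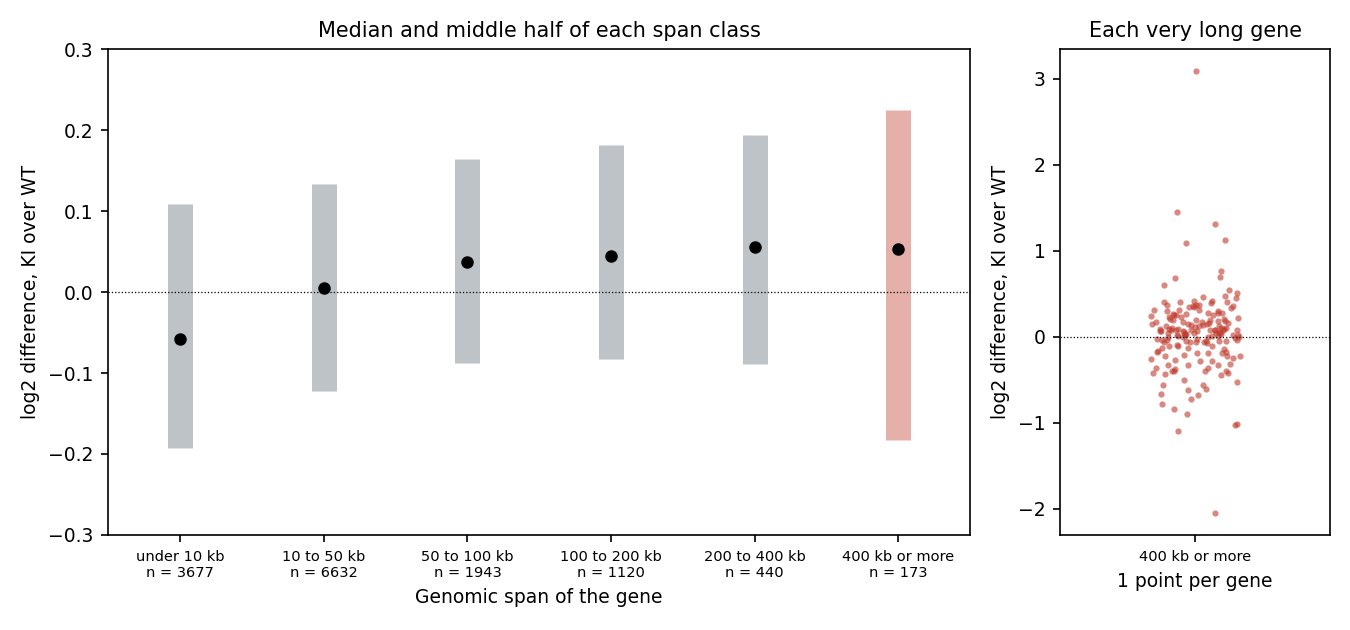
Left, median (black point) and middle 50% (bar) of the log2 difference, KI over WT, in 6 classes of genomic span, with the number of genes tested in each. Right, the log2 difference of each of the 173 very long genes. The medians lie between -0.06 for genes under 10 kb and 0.06 for genes of 200 to 400 kb, and the very long genes lie at 0.05 with the widest bar.

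Across the whole range of span, the shortest genes were slightly lower and longer genes slightly higher in KI livers. The median log2 difference was -0.06 for 3677 genes under 10 kb, 0.005 for 6632 genes of 10 to 50 kb, 0.04 for 1943 genes of 50 to 100 kb, 0.04 for 1120 genes of 100 to 200 kb and 0.06 for 440 genes of 200 to 400 kb. The very long genes, at 0.05, therefore lay at the level of the classes just below them. Within the set the median was 0.01 for 71 genes of 400 to 500 kb, 0.05 for 56 genes of 500 to 750 kb, 0.10 for 21 genes of 750 to 1000 kb and 0.18 for 25 genes above that. Among these 25 genes, 8 had negative log2 differences. Spearman's rank correlation between span and log2 difference was 0.15 across the 13989 genes and 0.13 across the 173 genes, as a description across genes that share the same 7 libraries. Pearson's correlation with the log10 of span was 0.08 across the 13989 genes and -0.03 across the 173 genes.

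A like ordering was seen across all genes with exonic length in place of genomic span. Exonic length merges the exons of all annotated transcripts of a gene, so it can exceed the length of any single transcript. Genes with under 2 kb of exon had a median log2 difference of -0.08 and genes with at least 8 kb of exon one of 0.05. Among genes with 4 to 8 kb of exon the median increased with span, at -0.06 under 10 kb, 0.01 at 10 to 50 kb, 0.03 at 50 to 100 kb, 0.03 at 100 to 200 kb, 0.06 at 200 to 400 kb and 0.06 for 31 very long genes. In the same order of span up to 200 to 400 kb, genes with 2 to 4 kb of exon had -0.04, 0.003, -0.001, 0.02 and -0.04. Genes with under 2 kb of exon had -0.09, -0.06 and -0.11 up to a span of 50 to 100 kb. In these classes the median did not increase steadily. Among genes with at least 8 kb of exon, 110 very long genes had a median of 0.05, against 0.06 for 219 genes of 200 to 400 kb, 0.06 for 478 genes of 100 to 200 kb, 0.06 for 589 genes of 50 to 100 kb and 0.03 for 627 genes of 10 to 50 kb. Spearman's rank correlation with exonic length was 0.15 across 12287 genes and 0.02 across the 173 very long genes. Across all genes both lengths moved with the difference, and the part of either was not tested.

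Setting very long genes beside shorter genes of like expression gave a similar picture. In bands of mean CPM, the very long genes had the higher median in 6 of 8 bands. At 16 to 32 CPM, 22 very long genes had a median log2 difference of 0.10, against 0.005 for 2214 shorter genes, and at 32 CPM or more 22 very long genes had 0.06, against -0.01 for 3641 shorter genes. In the band of 1 to 2 CPM the order was the opposite, with -0.25 for 21 very long genes, against -0.005 for 978 shorter genes. Of the 173 genes, 103 lay above and 70 below the median of the shorter genes in their band, and the median of these 173 deviations was 0.0536. It was 0.0201 without WT replicate 3, 0.0258 without KI replicate 2 and 0.0343 without WT replicate 2. The median absolute log2 difference was 0.21 over the 173 genes. For shorter genes the mean of band medians, weighted as the very long genes, was 0.19, which is not the same measure. Within bands the very long genes had larger or smaller differences than shorter genes. The medians were 0.31 against 0.18 at 2 to 4 CPM and 0.16 against 0.10 at 16 to 32 CPM. They were 0.25 against 0.37 under 0.5 CPM and 0.09 against 0.14 at 4 to 8 CPM.

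**Figure D2:**
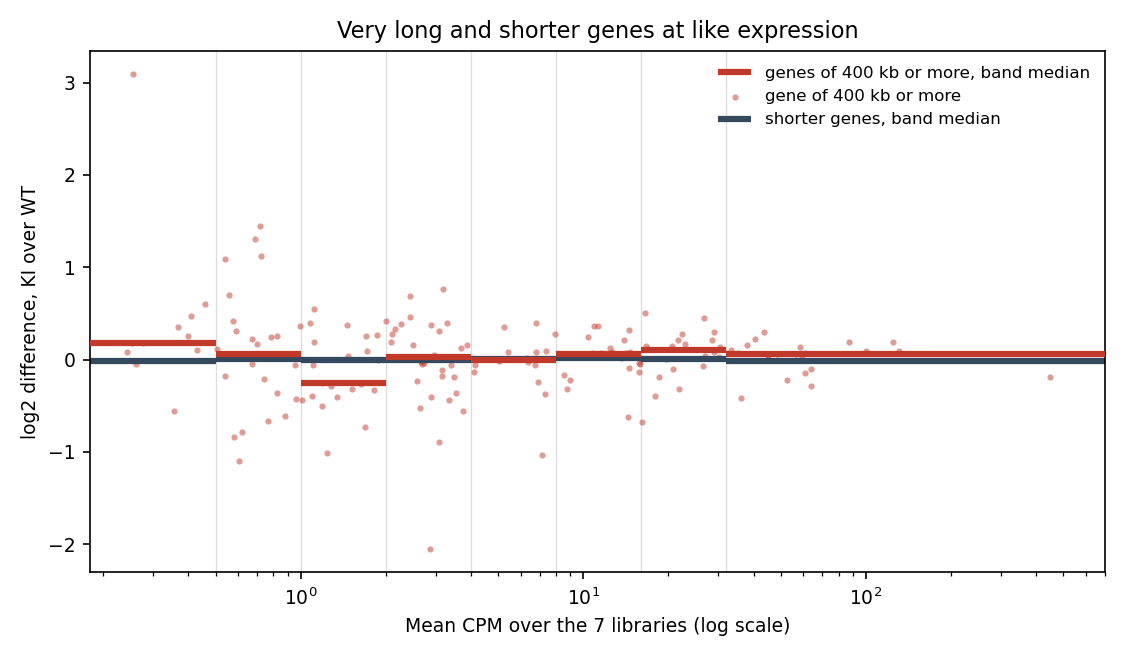
Log2 difference, KI over WT, of each very long gene (red point) against its mean CPM over the 7 libraries (log scale), with the band medians of the very long genes (red lines) and of genes under 400 kb (dark lines). The points spread more widely at low CPM, and the red lines lie above the dark ones in 6 of 8 bands and at -0.25 in the band of 1 to 2 CPM.

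The very long genes did not separate the groups by library. With each gene's log2 CPM centred on its mean over the 7 libraries, the very long genes had a median of 0.0158, 0.0378, 0.0197 and -0.0086 in KI replicates 1 to 4, against 0.0062, 0.0007 and -0.0654 in WT replicates 1 to 3. WT replicate 3 stood below all the others, and KI replicate 4 lay below WT replicates 1 and 2, so the groups overlapped. For genes of 200 to 400 kb the same centred medians were -0.0149, 0.0849, 0.0452 and 0.0020 in KI, against 0.0096, -0.0022 and -0.0911 in WT. For genes under 10 kb they were -0.0083, -0.0651, -0.0009 and 0.0080 in KI, against 0.0141, 0.0483 and 0.0530 in WT. In this shortest class every KI library lay below every WT library, so the groups did not overlap. KI replicate 2 and WT replicate 3 stood at opposite ends for short and for long genes alike.

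**Figure D3:**
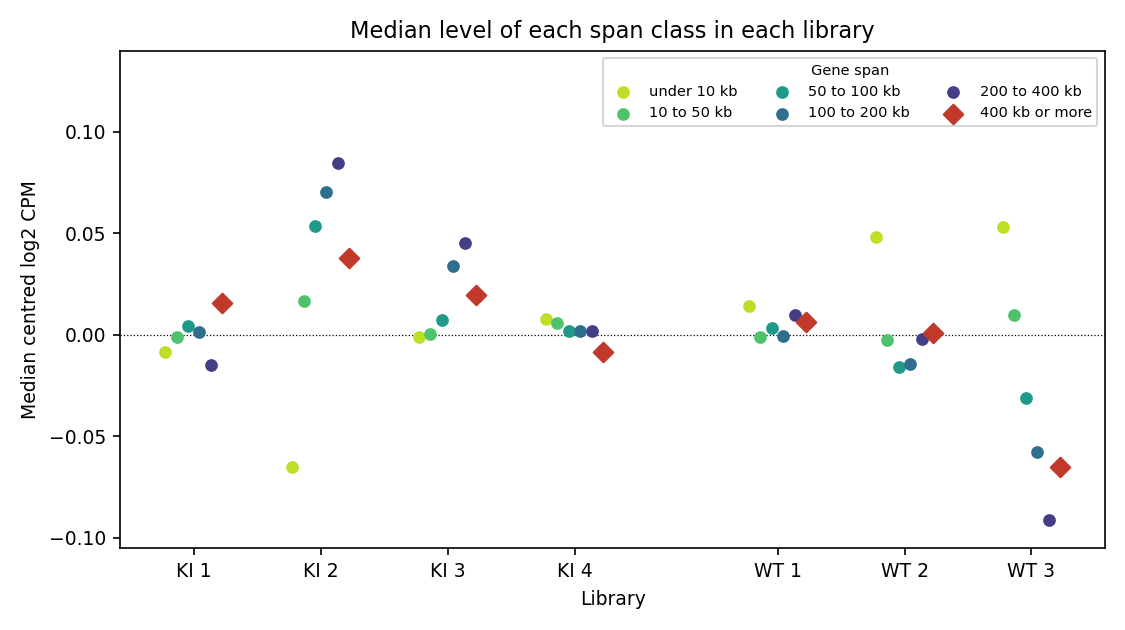
Median centred log2 CPM of 6 span classes in each library, KI left and WT right. KI replicate 2 and WT replicate 3 spread the classes in opposite orders, and the very long genes (red diamonds) range from -0.0654 in WT replicate 3 to 0.0378 in KI replicate 2.

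Gene by gene, 0 of the 173 very long genes passed the edgeR quasi-likelihood test at an adjusted p under 0.05, where 0.0357% of all genes tested passed. The one gene of at least 400 kb that did pass was the excluded Exoc4, a subunit of the exocyst, with a log2 change of 0.91 (SE 0.09). At an unadjusted p under 0.05 there were 25 very long genes, or 14.5%, against 10.6% of all genes tested. Of these, 14 were higher in KI (8.09%, where 5.6% of all genes were) and 11 lower (6.36%, where 4.97% of all genes were). All 4 KI libraries lay above all 3 WT libraries in 11 genes and below them in 11 genes, which is 6.36% each, against 5.48% and 5.46% of all genes. DESeq2 called 4 of the very long genes, or 2.34% of the 171 that it tested, against 1.63% of all genes. Slc35f1 met the count minimum only through the KI libraries. The 4 genes called by DESeq2 were 2 higher and 2 lower genes, or 1.17% each, where 1.06% of all genes were called higher and 0.576% lower. On simulated data 31 of 202 DESeq2 calls were false, against 5 of 164 edgeR calls. The simulated counts used dispersions estimated by edgeR and held no library apart from its group, so these shares may not hold for the genes called here. The limma-voom test called 0 of them, and 0.05% of all genes. Without WT replicate 1 the edgeR test called 2 of them, Arhgap6 and Dlgap1, where 0.691% of all genes were called, and 39 of them (22.5%) had an unadjusted p under 0.05, where 14.7% of all genes had.

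The 4 very long genes called by DESeq2 were Slc35f1, Slc39a11, Arhgap6 and Cacna1d. The sequences around the starts of their spans are shown because a transcript of the whole span would begin there. Each runs from 250 bases before to 50 bases after a RefSeq start on GRCm38.p6, with the dinucleotide CG in capitals.
Slc35f1, chr10:52690251-52690550, plus strand: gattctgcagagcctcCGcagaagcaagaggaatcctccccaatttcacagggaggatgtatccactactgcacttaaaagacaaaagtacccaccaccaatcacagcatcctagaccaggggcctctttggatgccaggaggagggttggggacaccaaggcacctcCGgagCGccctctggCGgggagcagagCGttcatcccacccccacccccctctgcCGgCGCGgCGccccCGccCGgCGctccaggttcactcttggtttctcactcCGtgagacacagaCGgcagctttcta
Slc39a11, chr11:113650043-113650342, minus strand: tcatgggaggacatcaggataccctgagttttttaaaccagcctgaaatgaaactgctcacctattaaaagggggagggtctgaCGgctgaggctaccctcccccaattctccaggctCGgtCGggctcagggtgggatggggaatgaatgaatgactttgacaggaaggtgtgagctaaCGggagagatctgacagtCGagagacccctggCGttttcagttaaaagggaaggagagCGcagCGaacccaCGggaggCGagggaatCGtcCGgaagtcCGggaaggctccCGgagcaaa
Arhgap6, chrX:168794849-168795148, plus strand: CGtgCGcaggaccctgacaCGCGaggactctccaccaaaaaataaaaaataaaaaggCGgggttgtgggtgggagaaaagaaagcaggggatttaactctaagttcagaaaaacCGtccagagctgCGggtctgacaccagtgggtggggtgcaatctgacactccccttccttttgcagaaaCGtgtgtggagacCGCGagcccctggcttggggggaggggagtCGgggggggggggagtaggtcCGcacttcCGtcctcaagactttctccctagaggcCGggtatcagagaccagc
Cacna1d, chr14:30491107-30491406, minus strand: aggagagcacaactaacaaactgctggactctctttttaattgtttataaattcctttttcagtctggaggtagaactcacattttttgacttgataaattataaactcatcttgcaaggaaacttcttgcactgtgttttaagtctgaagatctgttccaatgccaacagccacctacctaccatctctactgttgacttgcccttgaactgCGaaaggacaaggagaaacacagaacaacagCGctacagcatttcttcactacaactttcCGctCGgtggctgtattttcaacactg
The windows of Slc35f1, Slc39a11 and Arhgap6 held 14 CG dinucleotides each and that of Cacna1d 4. Other RefSeq starts lie inside the spans of 3 of these genes. Their windows held 63 CG dinucleotides and no TATAAA for Cacna1d, 13 for Slc39a11, and 12 and 3 for Arhgap6. Which start is used in liver was not tested. A RefSeq promoter was found by symbol for 129 very long genes, with a median of 19 CG dinucleotides per window, against 20 for 10409 shorter genes tested. The letters TATAAA, on either strand, stood in 9.3% of the windows of very long genes, against 7.51% of those of the shorter genes. They stood in the window of Cacna1d shown here. A match to these letters is a description of the window and not a site.

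Among the genes with the smallest p that were higher in KI, the largest difference was seen for Slc35f1, a member of the solute carrier family 35. Slc35f1 (ENSMUSG00000038602, chromosome 10, 52690533 to 53111622, plus strand, mm10) had 13, 14, 18 and 23 counts in KI libraries, against 2, 1 and 3 counts in WT libraries. All KI libraries lay above all WT libraries, at levels of less than 1 CPM throughout. The ratio of summed counts per total count, KI over WT, was 8.88, with an exact 95% interval from 3.88 to 25.04 that covers counting error only. The gene averaged 17 counts in KI libraries and 2 in WT libraries, so it entered the set only through the group in which it is high, and its ratio, interval and DESeq2 call are a description and no support for a difference.

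Slc39a11, which encodes a zinc transporter of the ZIP family, had the next smallest p. It (ENSMUSG00000041654, chromosome 11, 113244853 to 113650079, minus strand) had 29.6, 27.0, 33.4 and 31.1 CPM in KI libraries, against 22.0, 21.6 and 22.8 CPM in WT libraries. The KI libraries lay above the WT libraries without overlap. KI exceeded WT by a log2 difference of 0.45 (SE 0.09; edgeR adjusted p = 0.188; DESeq2 adjusted p = 0.00441).

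Nrg1 and Erbb4, taken by their small p and not from a list of a pathway, had KI libraries above all WT libraries. Nrg1, which encodes neuregulin 1, a ligand of ErbB receptors, had 0.794, 0.918, 0.938 and 1.13 CPM in KI libraries, against 0.286, 0.399 and 0.603 CPM in WT libraries. Erbb4, which encodes a neuregulin receptor, had 4.41, 3.38, 3.27 and 4.38 CPM in KI libraries, against 2.21, 1.45 and 3.14 CPM in WT libraries. In neither gene did the groups overlap, although WT replicate 3 came close to the lowest KI library for Erbb4. The log2 differences were 1.12 (SE 0.31) and 0.76 (SE 0.26), and neither gene passed (edgeR adjusted p = 0.294 and 0.368).

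Smaller and more even differences were found for Immp2l, Wwox and Diaph2. Immp2l, a subunit of the peptidase of the mitochondrial inner membrane, had 32.8, 30.1, 30.4 and 32.7 CPM in KI libraries, against 27.0, 22.2 and 27.8 CPM in WT libraries. Wwox, an oxidoreductase and tumour suppressor at a common fragile site, had 8.19, 7.45, 6.99 and 7.74 CPM in KI libraries, against 6.81, 5.09 and 5.36 CPM in WT libraries. Diaph2, a formin that nucleates actin filaments, had 16.02, 15.0, 17.4 and 14.9 CPM in KI libraries, against 14.3, 12.2 and 11.7 CPM in WT libraries. In each of these genes every KI library lay above every WT library, by a small margin in Wwox and Diaph2. Their log2 differences were 0.30, 0.40 and 0.32 (edgeR adjusted p = 0.346, 0.352 and 0.346). Cdh18, a cadherin, varied widely, with 1.08, 0.393, 1.04 and 1.41 CPM in KI libraries, against 0.238, 0.599 and 0.2495 CPM in WT libraries, and its groups overlapped.

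Among the genes with the smallest p that were lower in KI, the largest fold was that of a transmembrane collagen. Col25a1 had 0.419, 0.446, 0.329 and 0.424 CPM in KI libraries, against 0.714, 0.849 and 1.04 CPM in WT libraries, from 13 to 50 counts per library. Arhgap6 (ENSMUSG00000031355, chromosome X, 168795099 to 169304435, plus strand), a GTPase-activating protein, had 5.52, 3.85, 4.59 and 5.81 CPM in KI libraries, against 6.64, 13.8 and 9.98 CPM in WT libraries. The groups did not overlap in either gene, and the WT libraries of Arhgap6 spread over a wider range than the KI libraries. The log2 differences were -1.10 (SE 0.26) and -1.03 (SE 0.24), both with an edgeR adjusted p = 0.257. DESeq2 called Arhgap6 (adjusted p = 0.00934), and it shares 11.8% of its exonic bases with other genes, mostly Hccs on the opposite strand, whose reads cannot be told apart, as the library protocol describes no step that marks strand.

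An ion channel gene and a zinc finger gene also lay below WT. Cacna1d (ENSMUSG00000015968, chromosome 14, 30039949 to 30491156, minus strand), the pore-forming subunit of an L-type calcium channel, had 2.91, 3.54, 3.07 and 2.92 CPM in KI libraries, against 4.50, 4.42 and 4.82 CPM in WT libraries. Zfp385b, a zinc finger protein, had 13.2, 13.1, 10.3 and 9.93 CPM in KI libraries, against 21.9, 17.7 and 14.2 CPM in WT libraries. The groups were well apart for Cacna1d and only just apart for Zfp385b. The log2 differences were -0.56 (SE 0.13) and -0.62 (SE 0.17), and neither passed edgeR (adjusted p = 0.257 and 0.276), while DESeq2 called Cacna1d (adjusted p = 0.0312). Of the exonic bases of Cacna1d, 4.67% are shared with Chdh on the opposite strand. Chdh had 56416 counts over the 7 libraries, while Cacna1d averaged 159 counts per library. Reads of the shared bases cannot be told apart, and their part in the level of Cacna1d was not tested.

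Rora, a nuclear receptor of the circadian clock and of lipid metabolism, lay below WT by a small margin. It had 62.6, 58.3, 56.5 and 55.6 CPM in KI libraries, against 64.9, 77.3 and 70.6 CPM in WT libraries. Its groups did not overlap, with WT replicate 1 only slightly above KI replicate 1. This gave a log2 difference of -0.28 (SE 0.08; edgeR adjusted p = 0.331).

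The other genes of this group had overlapping libraries. Dlgap1, known as a scaffold of the postsynaptic density, had 2.23, 2.70, 1.75 and 2.35 CPM in KI libraries, against 2.67, 4.92 and 5.01 CPM in WT libraries. Fgfr2, a fibroblast growth factor receptor, had 33.7, 29.5, 36.4 and 26.9 CPM in KI libraries, against 36.0, 48.8 and 42.1 CPM in WT libraries. Fhod3, a formin, had 1.70, 1.42, 0.988 and 1.15 CPM in KI libraries, against 2.74, 2.25 and 1.58 CPM in WT libraries. In Dlgap1 and Fgfr2 it was WT replicate 1 that lay among the KI libraries, and in Fhod3 it was WT replicate 3. Without WT replicate 1 Dlgap1 had a log2 change of -1.14 (edgeR adjusted p = 0.0486) and Arhgap6 one of -1.26 (edgeR adjusted p = 0.0391).

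**Figure D4:**
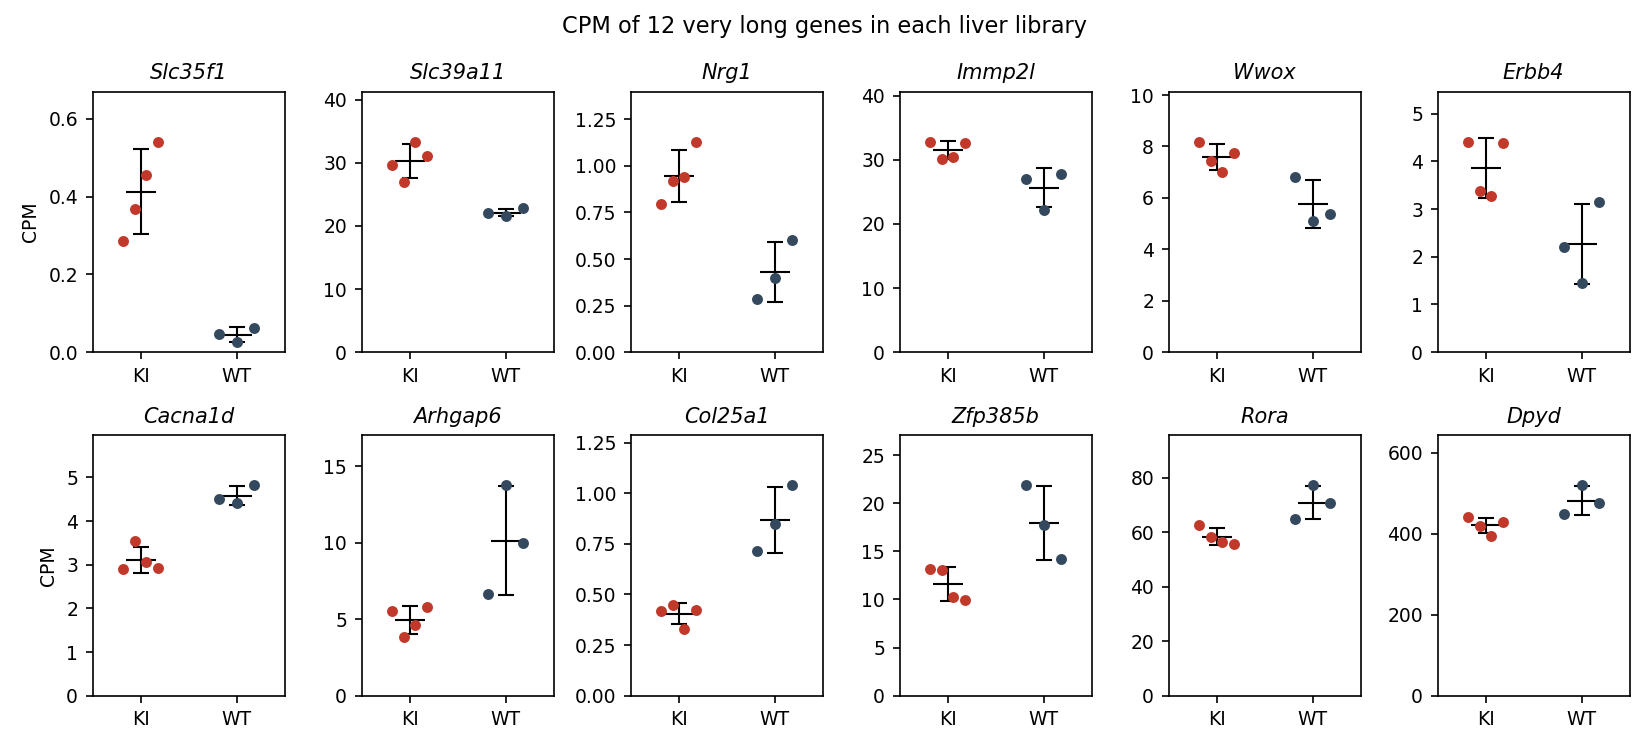
CPM of 12 very long genes, each point 1 library, KI left and WT right in every panel, with the mean and SD as bars and each axis starting at 0. The panels show named genes chosen because their KI and WT points do not overlap, as holds for 11 of the 173 genes in each direction (6.36% each, against 5.48% and 5.46% of all genes), with wide gaps for Slc35f1, Slc39a11 and Cacna1d and narrow ones for Erbb4, Rora and Dpyd.

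The most abundant very long genes, compared per transcript length, were mostly enzymes. Among the 6 of highest TPM, Cpq, Snd1, Gphn and Fars2 differed little between groups, while Dpyd and Immp2l had groups that did not overlap. Dpyd, the rate-limiting enzyme of pyrimidine breakdown, led with 102 ± 5.43 TPM in KI livers (SD, n = 4) and 119 ± 13.4 TPM in WT livers (SD, n = 3). In CPM its KI libraries, at 440, 419, 396 and 429, all lay below the WT libraries at 449, 520 and 476, with a log2 difference of -0.19 (SE 0.09; edgeR adjusted p = 0.482). The WT library nearest to the KI range was replicate 1. Cpq, a carboxypeptidase, had 57.2 ± 3.00 TPM in KI and 58.2 ± 5.11 TPM in WT. Snd1, an RNA-binding nuclease-domain protein, had 34.8 ± 1.64 TPM in KI and 33.2 ± 3.14 TPM in WT, and Gphn, which makes the molybdenum cofactor, had 31.1 ± 2.64 TPM in KI and 31.2 ± 1.19 TPM in WT. Immp2l and the mitochondrial phenylalanyl-tRNA synthetase Fars2 followed, Fars2 with 23.7 ± 0.662 TPM in KI and 25.4 ± 2.10 TPM in WT. Fars2 shares 10.7% of its exonic bases with other genes, mostly Nrn1 on the opposite strand, which had 87876 counts over the 7 libraries. The log2 differences of Cpq, Snd1, Gphn and Fars2 lay between -0.07 and 0.09, with edgeR adjusted p between 0.713 and 0.986.

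The longest genes had libraries that overlapped between the groups. Ptprd, a receptor tyrosine phosphatase spanning 2271 kb, had 133, 125, 128 and 139 CPM in KI libraries, against 138, 106 and 101 CPM in WT libraries. Dmd, which encodes dystrophin and spans 2257 kb, had 19.5, 26.3, 21.1 and 24.8 CPM in KI libraries, against 22.6, 17.5 and 19.4 CPM in WT libraries. The groups of both genes overlapped, and their log2 differences were 0.19 (SE 0.11) and 0.21 (SE 0.13), with edgeR adjusted p = 0.573 and 0.584. Macrod2, an ADP-ribose hydrolase spanning 1998 kb, and Fhit, a dinucleotide hydrolase spanning 1612 kb, had log2 differences of 0.05 (SE 0.22) and 0.33 (SE 0.25), with overlapping groups. Fgfr2 and Chd1, a chromatin remodeller with a log2 difference of -0.01 (SE 0.11), count among the longest only by the table's own span. The longest row of all, Gm20388, named here after its values were seen, covers 4435 kb, shares all of its exonic bases with other genes, mostly Galnt2 on the same strand, and had the lowest log2 difference of the set, at -2.05 with an SE of 1.45.

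No list of very long genes by role leaned towards lower levels in KI livers. The lists were made by hand and are incomplete, and that of enzymes and transporters also holds genes of other roles. The listed transcription and RNA regulators had 9 positive and 7 negative log2 differences, with a median of 0.08. Of these 16 genes, 1, Rora, had an unadjusted p under 0.05. Adhesion, polarity and receptor phosphatase genes had 16 positive and 6 negative differences, with a median of 0.09. Signalling genes had 19 positive and 10 negative differences and a median of 0.08, and enzymes and transporters 18 positive and 11 negative differences and a median of 0.08. The 77 genes in none of these lists were even, with 39 positive and 38 negative differences and a median of 0.01. At an unadjusted p under 0.05, 3 of the 77 were higher and 4 lower. They include Zfp385b, Chd1 and the formin Fhod3, with log2 differences of -0.62, -0.01 and -0.73. The formin Diaph2, at 0.32, is in the signalling list. The medians thus depend on which genes were listed. In the edgeR test 0 genes of any of these groups passed. Genes at common fragile sites, 19 of them, had 14 positive and 5 negative differences and a median of 0.10, with 3 higher genes (Immp2l, Wwox and Vps13b) and 1 lower gene (Rora) at an unadjusted p under 0.05, where 5.6% of all genes were higher and 4.97% lower. Across all genes tested the median was 0.001.

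**Figure D5:**
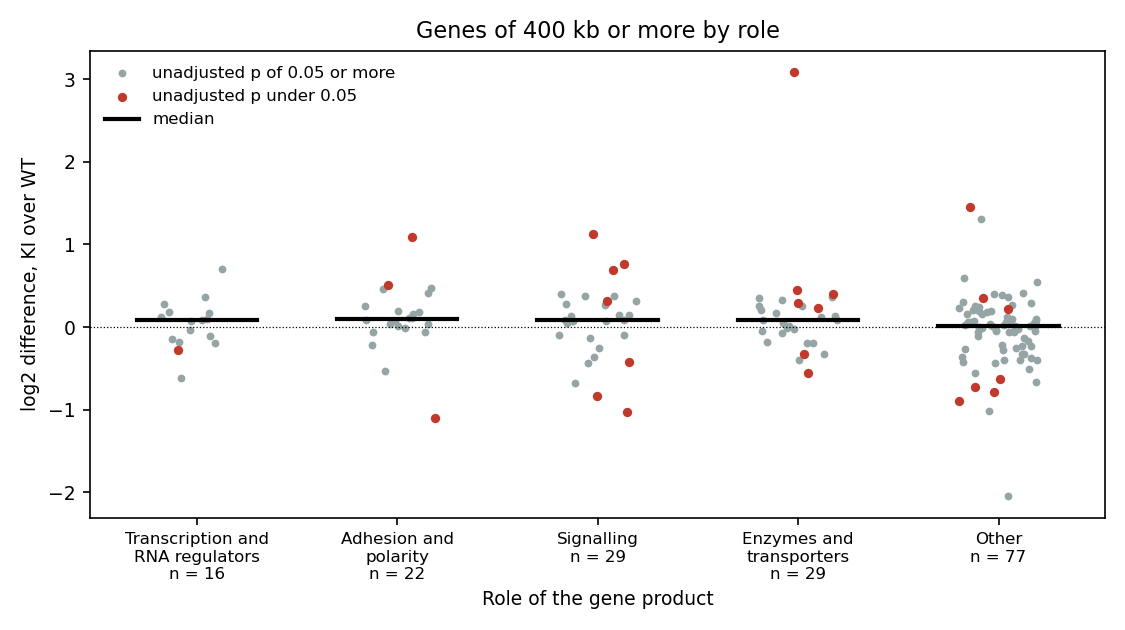
Log2 difference, KI over WT, of each of the 173 very long genes by hand-made list of roles. Lines are group medians, and genes with an unadjusted edgeR p under 0.05 are red. The medians lie between 0.01 and 0.09, and red points stand on both sides of 0 in every group but the transcription and RNA regulators.

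Some very long genes mark minor cell types of the liver. Reln, which encodes reelin and marks stellate cells, had a log2 difference of 0.29 (SE 0.19). Pkhd1, which encodes fibrocystin of bile duct cilia, had one of 0.35 (SE 0.14), with an edgeR adjusted p = 0.445. Beside Pkhd1, the cholangiocyte marker list, which includes it, summed to 56.5 to 74.5 CPM in KI libraries and 39.0 to 57.0 CPM in WT libraries, with 5 of 7 tested markers above WT, and its part in the difference of Pkhd1 was not tested. The stellate cell and fibroblast list summed to 315 to 364 CPM in KI libraries and 303 to 344 CPM in WT libraries. Of the neuronal and glial list, Syt1 and Rbfox3 are themselves very long genes, with log2 differences of 0.25 (SE 0.17) and -0.67 (SE 0.32), and the list summed to 12.2 to 14.5 CPM in KI libraries and 9.86 to 14.8 CPM in WT libraries.

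Genes for the elongation of RNA polymerase II and for repair of its template were mostly near WT levels. Of 44 elongation genes, 24 had positive and 20 negative log2 differences, with a median of 0.02, and 0 passed edgeR. At an unadjusted p under 0.05, 3 of the 44 were higher and 1 lower, where 5.6% of all genes were higher and 4.97% lower. Cdk12, the kinase known to be needed for expression of long genes of the DNA damage response, had 16.2, 18.1, 15.5 and 17.6 CPM in KI libraries, against 12.9, 13.9 and 15.3 CPM in WT libraries. Its groups did not overlap, with a log2 difference of 0.26 (SE 0.10; edgeR adjusted p = 0.392). Cdk9, the kinase that releases paused polymerase, had 26.7 ± 1.77 CPM in KI (SD, n = 4) and 31.1 ± 2.13 CPM in WT (SD, n = 3), with a log2 difference of -0.22 (edgeR adjusted p = 0.404). Of 18 genes of transcription-coupled repair, 8 had positive and 10 negative differences, and the helicase gene Ercc3 alone had an unadjusted p under 0.05, with a log2 difference of 0.30 (edgeR adjusted p = 0.403). Of 20 genes of topoisomerases and crosslink removal, 12 had positive and 8 negative differences, and 0 had an unadjusted p under 0.05. Top1 and Top2b, the topoisomerases that relieve the torsion of transcription, had log2 differences of 0.12 (SE 0.16) and -0.02 (SE 0.09).

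Genes on both sides of the limits of span and count are given as a description. Just inside the span limit, Dst, a linker of the cytoskeleton at 400.4 kb, and Dock4, a Rac activator at 400.9 kb, had log2 differences of 0.19 (SE 0.13) and 0.15 (SE 0.16). Just outside it, Plxdc2 at 399.5 kb had -0.15 (SE 0.38) and Adk, the adenosine kinase, at 396.0 kb had -0.12 (SE 0.09). Just inside the count limit, Pde1c, a cyclic nucleotide phosphodiesterase, had a mean of 10.1 counts and a log2 difference of 0.08 (SE 0.51), while Slc35f1, with a mean of 10.6 counts, had 3.09 (SE 0.47). Just outside it, Aff3 had a mean of 9.43 counts and -0.10 (SE 0.52), and Dab1 a mean of 9.71 counts and no test.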

How the data were processed

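Liver RNA-seq of 4 KI and 3 WT mice was used as deposited. The authors' table gives whole-number counts per gene, its region on mm10 (per the submitters' processing notes) and deposited TPM per library; no label names the aligner or counter. The 14 per-sample columns of other units were not used. Members and gene lists were chosen with earlier results of these data known. Levels per transcript length are TPM and other levels CPM from total counts, with library totals scaled by TMM. Counts were filtered with filterByExpr, scaled by TMM and tested by edgeR 4.0.16 quasi-likelihood over 13989 genes with Benjamini-Hochberg adjustment, without replicate numbers, since the numbers did not pair the libraries. DESeq2 1.42.0 and limma 3.58.1 (R 4.3.3) were alternatives, with other scalings, filters, limits and left-out libraries. The tests were checked on counts simulated with dispersions estimated by edgeR. There 31 of 202 DESeq2 calls, 5 of 164 edgeR calls and 3 of 162 limma-voom calls were false. Named genes were the 8 with the smallest p in each direction, the 6 of highest TPM, the 6 longest and those at the limits, leaving out clone names such as Gm20388. A two-sided exact permutation of 1 gene has 35 splits and cannot go below 0.0286. The labels number the mice of each group and do not describe how each was sampled, so p-values measure the spread between these samples. Exon overlap and biotype came from GENCODE M21, which held 99.6% of the gene IDs, with 150 of the 173 genes at the same position. The interval on a ratio of counts covers counting error only, and depth limits genes of few counts most.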

Additional observations from a re-analysis of the deposited data

Results flagged for a closer look

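Among 48 sets of KI values examined for a library apart from the rest, 3 were found, and chance gives about 1 in 20. The summed skeletal muscle markers were 68.85 CPM in KI replicate 1, against 0.487 to 0.842 CPM in the other KI libraries. The summed adipocyte markers were 19.33 CPM in KI replicate 2, against 5.25 to 6.25 CPM in the other KI libraries and 1.61 to 3.32 CPM in WT libraries, so that every KI library lay above every WT library. Only 2 of the 5 adipocyte markers and 1 of the 6 skeletal muscle markers passed the expression filter of the test, and 0 of them were called. The median centred log2 CPM of genes of 50 to 100 kb was 0.0537 in KI replicate 2, against 0.0017 to 0.0072 in the other KI libraries. The part of these libraries in the values of very long genes was not tested beyond leaving each of them out.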

How the results depend on the processing

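The median log2 difference of the very long genes stayed positive under all alternatives run, between 0.0239 and 0.0770. The median over all genes was -0.0122 with upper-quartile scaling, against 0.0007 with TMM. The count of genes called was 0 except for 4 with DESeq2 and 2 without WT replicate 1 (range 0 to 2 with 1 library left out). The count at an unadjusted p under 0.05 was 39 without WT replicate 1, 43 without WT replicate 1 and KI replicate 1 (chosen after seeing the data), 15 with a limit of 500 kb, and 17 to 39 with 1 library left out. The share of negative differences was 46.2% without WT replicate 3, and 37.6% to 46.2% with 1 library left out. The median deviation from shorter genes of like expression was 0.0137 as a mean in place of a median, and 0.0201 to 0.0635 with 1 library left out. With the replicate block 19 genes had an unadjusted p under 0.05 and 0 were called, with a median of 0.0550; same-numbered libraries did not deviate together (correlations of -0.061, 0.0051 and -0.0193). The cause of these shifts was not tested. Of the named genes, 5 changed sign: Macrod2 to -0.16 (replicate block), -0.16 without KI replicate 4 and -0.04 without WT replicate 2 (0.18 without WT replicate 1 and KI replicate 1); Pde1c to -0.20 (replicate block), -0.11 without WT replicate 1, -0.12 without WT replicate 3 and -0.05 without WT replicate 1 and KI replicate 1 (up to 0.56 without WT replicate 2); Gphn to -0.05 without KI replicate 1 and -0.0519 without WT replicate 3 (up to 0.0826 without WT replicate 1); Chd1 to 0.01, 0.04 and 0.09 without KI replicate 1, KI replicate 3 and WT replicate 1 and 0.11 without WT replicate 1 and KI replicate 1 (down to -0.0791 without KI replicate 2); and Cpq to 0.01, 0.01 and 0.0448 without KI replicate 1, KI replicate 2 and WT replicate 2 (down to -0.0294 without WT replicate 1). All of these lay within their SE of 0 in the full fit. Depth limits genes such as Slc35f1, with 1 to 23 counts per library, and Pde1c, with a mean of about 10 counts.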
